A study of Rattus norvegicus with 36 samples.

Results

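Plaur, Cd44, Pdpn and Pvr encode cell surface proteins through which cells hold to the matrix or to each other and move. The 4 genes were followed in rat skeletal muscle after resisted contractions. They were chosen because their signal in RNA on polyribosomes was higher 6 h after contraction than in uncontracted muscle, so that comparison is described here without a test. All probe sets that the platform annotation names with 1 of these symbols were taken, 7 of the 8740 probe sets that are no controls, for 4 of the 4736 genes that the array names singly. Plaur, Pdpn and Pvr have 1 probe set each and Cd44 has 4. Of the 7, 5 lay above a detection floor of 129.5 signal units on at least 4 arrays and entered the fit. Of the 4 for Cd44, M61875_s_at carries the results, A30543cds_s_at passed on exactly 4 arrays, and AF014365_i_at and AF014365_s_at never reached the floor.

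The series holds 36 one-colour arrays in 6 groups of rat muscle, labelled only "ta", and each number within a group has 2 arrays. Exercised muscle was sampled at 6 h as polysomal RNA (8 arrays, 4 numbers) and as total RNA (8 arrays, 4 numbers), and at 1 h as polysomal RNA (4 arrays, 2 numbers) and as total RNA (4 arrays, 2 numbers). Muscle whose labels name no contractions gave 4 arrays (2 numbers) titled 1hr polysome, whose description mentions no polysomes, here the control titled 1hr polysome, and 8 arrays (4 numbers) of polysomal RNA, here the polysomal control, whose description gives 1 h. The RNA fraction of the control titled 1hr polysome is therefore open to doubt. The only time that the labels of either control give is 1 h, so by label neither matched the 6 h groups. Strain, sex, age, how contractions were elicited and whether a number is a separate animal are not given in the sources used here, so a p-value here speaks of the scatter among these samples alone, and that scatter may be technical. Muscle transcripts marked the tissue, with at least 10 of 13 tested skeletal muscle fibre genes above the floor on every array. The arrays of whole muscle cannot tell fewer cells of a type from less RNA per cell.

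As background, Plaur encodes the urokinase receptor, a lipid-anchored protein that holds the protease urokinase at the cell surface, where plasminogen is activated, and that also binds the matrix protein vitronectin. CD44 is the main receptor for the matrix sugar hyaluronan and links to the actin cytoskeleton through ezrin, radixin and moesin. Podoplanin (Pdpn) is a mucin-like membrane protein of lymphatic endothelium and fibroblast-like cells that binds the platelet receptor CLEC-2 and the same actin linkers. PVR, named in humans as the poliovirus receptor, is a nectin-like adhesion protein that pairs with nectin 3 on neighbouring cells and is read by lymphocyte receptors such as CD226 and TIGIT.

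The promoters of Plaur and Pvr are shown because both genes lie on rat chromosome 1, with 17 protein-coding genes between them, and because Plaur alone among the 4 held a searched motif. Cd44 lies on chromosome 3 and Pdpn on chromosome 5. Each sequence is the 250 bases before the RefSeq gene start in build GRCr8, 5′ to 3′ on the gene's own strand, and capitals mark a match to the AP-1 motif TGANTCA.
Plaur, chr1:89181113-89181362, plus strand: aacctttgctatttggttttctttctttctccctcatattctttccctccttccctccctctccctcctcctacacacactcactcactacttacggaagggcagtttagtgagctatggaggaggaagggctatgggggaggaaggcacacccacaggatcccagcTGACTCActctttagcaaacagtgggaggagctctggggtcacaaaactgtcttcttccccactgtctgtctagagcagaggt
Pvr, chr1:88704642-88704891, minus strand: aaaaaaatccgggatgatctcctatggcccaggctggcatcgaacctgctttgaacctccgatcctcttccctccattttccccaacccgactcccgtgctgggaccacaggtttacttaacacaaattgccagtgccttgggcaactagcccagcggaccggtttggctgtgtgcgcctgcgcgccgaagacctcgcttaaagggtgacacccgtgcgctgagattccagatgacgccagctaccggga
The Plaur match, TGACTCA, lies at positions -83 to -77 before the start. The motif, searched on both strands, occurs in 6.34% of 33469 such rat promoter windows, and none was found in the windows of Cd44, Pdpn or Pvr. The cyclic AMP response element TGACGTCA (1.59% of windows) and the TATA box letters TATAAA (12.9% of windows), also searched on both strands, were in none of the 4, which says only that these letters are not in these windows. The GC content of the windows was 51.2% for Plaur, 60.8% for Cd44, 51.6% for Pdpn and 57.6% for Pvr, beside a median of 51.2% over all windows.

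Signals below are the deposited intensities, already scaled by the authors so that the 2% trimmed mean of an array lay between 801.0 and 801.9. Differences are on the log2 scale after values below the floor were raised to it, with the 2 arrays of a number averaged, so n counts numbers. A fold change near the floor understates the change.

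The group of exercised muscle at 6 h in polysomal RNA had the highest mean of every one of the 4 receptors, which the choice of genes favours. Plaur signals in this group ran from 984 over a median of 1201 to 1624 on 8 arrays, against 93.9, 168 and 299 on the 8 arrays of the polysomal control. All 8 exercised arrays lay above all 8 control arrays, of which 4 were below the floor. The log2 means were 10.24 ± 0.16 and 7.50 ± 0.34 (SD, n = 4 each), a difference of 2.74 (SE 0.43) or 6.68-fold.

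The hyaluronan receptor Cd44 (M61875_s_at) gave 508, 667 and 1205 as the lowest, median and highest of the 8 arrays at 6 h in polysomal RNA, against 128, 175 and 261 in the polysomal control. These arrays did not overlap either, and the difference of log2 means was 1.96 (SE 0.32), or 3.88-fold. A second Cd44 probe set, A30543cds_s_at, was too weak to be compared. It exceeded the floor on 1 of 8 arrays at 6 h in polysomal RNA, on 2 of 8 in the polysomal control and on 1 of 4 at 1 h in polysomal RNA. The strongest signal of AF014365_s_at on any array was 93.5 and that of AF014365_i_at was 6.54, both under the floor, so these probe sets give no level here.

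Pdpn ran from 193 over 573 to 1142 on the 6 h polysomal arrays, against 63.7, 153 and 242 in the polysomal control. The groups overlapped, since array 2bA of the exercised group, at 193, lay below array 3bA of the control, at 242. Within the exercised group numbers 3 and 4, at 625.3 to 1142, stood above number 2, at 193 and 328. The difference was 1.82 (SE 0.36), or 3.53-fold, with log2 means of 9.13 ± 0.89 and 7.31 ± 0.27 (SD, n = 4 each).

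Pvr was the receptor with the widest gap. Its signals were 1476, 2381 and 2942 as lowest, median and highest at 6 h in polysomal RNA, against 53.6, 86.9 and 127 in the polysomal control. Every control array lay under the floor, so the level there is only bounded and Pvr was at least 16.8-fold higher after exercise. Of all 6707 tested probe sets 1.18% had all exercised arrays above all control arrays in this comparison, beside 3 of the 4 receptors. The model called 0.343% of the probe sets there, and the 4 receptors among them reflect how they were chosen.

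**Figure D1:**
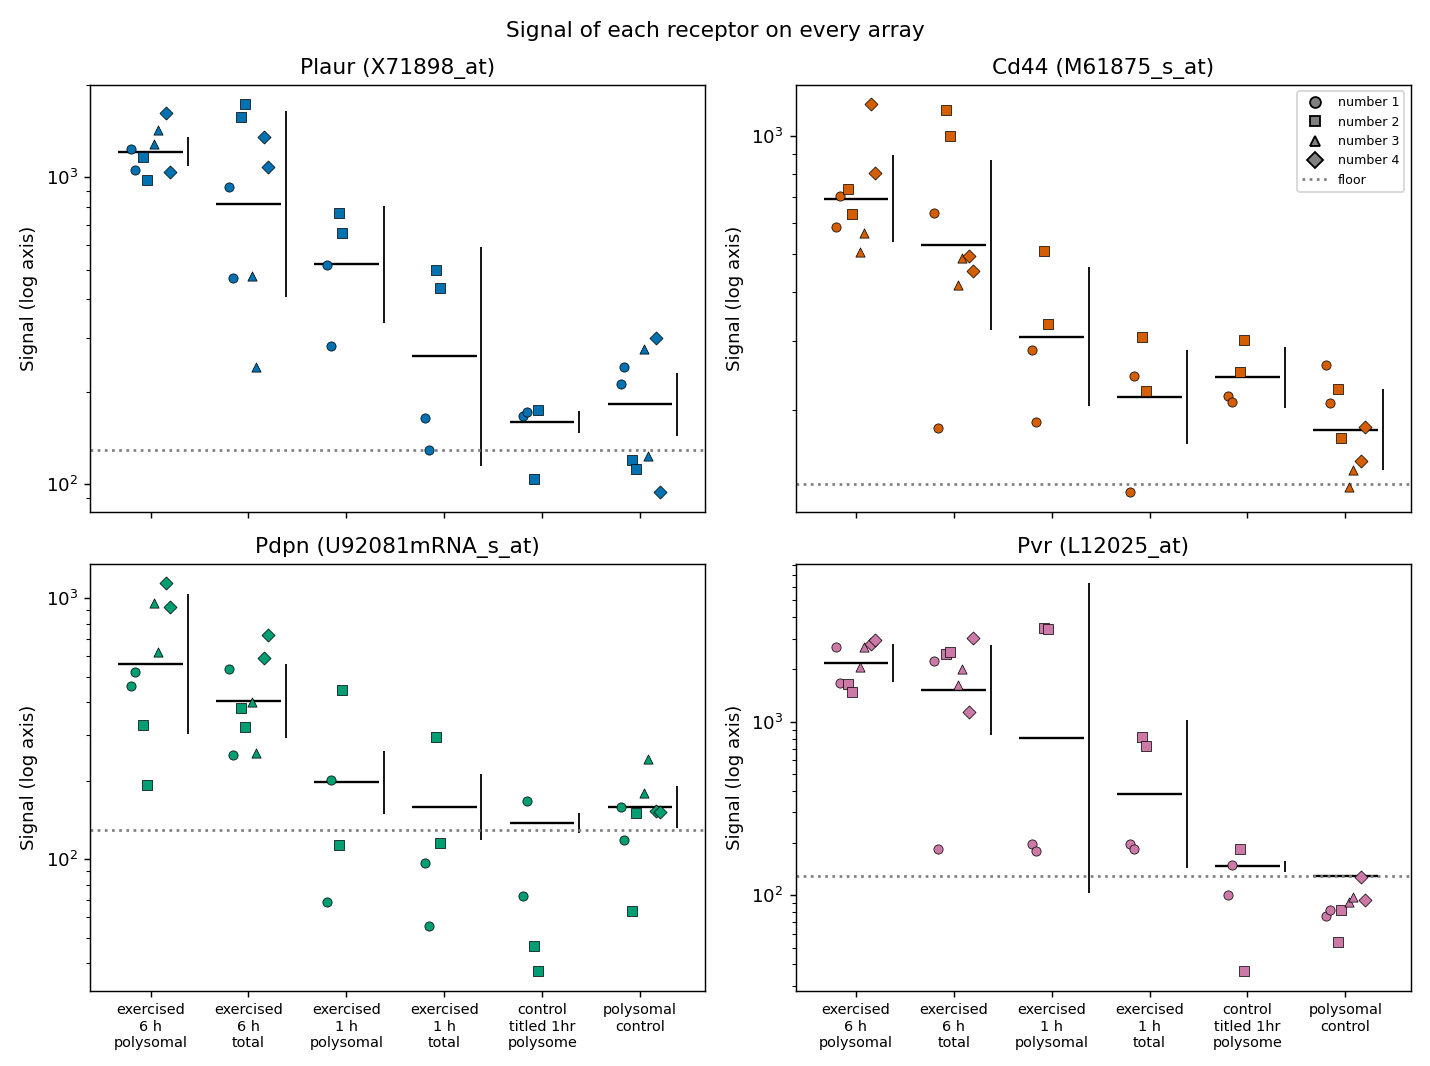
Signal of Plaur, Cd44, Pdpn and Pvr on each of the 36 arrays (points, log axes, symbols by number), with the geometric mean (horizontal line) and its SD over numbers (vertical line) in each group. The exercised 6 h groups have the highest means in all 4 panels. The highest single Pvr arrays are those of number 2 at 1 h in polysomal RNA, at 3472 and 3399. For Pvr, 1 total RNA array of number 1 at 6 h falls to the control range (186). Pvr lies under the dotted floor on all 8 polysomal control arrays.

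Total RNA at 6 h used arrays that played no part in the choice of genes. The labels do not say whether total and polysomal RNA of a number come from the same muscle. These arrays may therefore not be independent of the choice. Their comparison partner is the control titled 1hr polysome, which the choice did not use. The description of this control mentions no polysomes while its title does, and its labelled time differs from 6 h. RNA fraction, collection time and contraction therefore cannot be told apart there. All 4 receptors had a higher mean at 6 h, and none passed the adjusted threshold of 0.05 in limma. Those calls depended on how the arrays were modelled. The random block takes 1 correlation between the arrays of a number, 0.31, for all probe sets. Where the arrays of a number agree more closely than that, its p-values are too small. The Pvr pairs at 1 h in polysomal RNA, for instance, read 198 and 180, and 3472 and 3399. With the replicate block Plaur (adjusted p = 0.0452, limma) and Pvr (adjusted p = 0.0493, limma) passed, and with the single arrays and the number as a random block Plaur (adjusted p = 0.00242, limma), Pdpn (adjusted p = 0.0351, limma) and Pvr (adjusted p = 0.00396, limma) did. At an unadjusted p under 0.05 all 4 did, against 7.43% of all probe sets that were higher at that level, and 0.403% of all probe sets passed after adjustment.

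Plaur read 241, 1006 and 1731 as lowest, median and highest on the 8 total RNA arrays at 6 h, against 167, 171, 104 and 175 on the 4 arrays of the control titled 1hr polysome. The exercised arrays all lay higher, although they spread over a far wider range than the 6 h polysomal arrays. The log2 difference was 2.36 (SE 0.53, 95% interval 1.23 to 3.49), or 5.13-fold, with an unadjusted p of 4.78e-04 and an adjusted p of 0.0659 (limma). The lowest Plaur signals were 241 on array 3bA, 470 on array 1bA and 476 on array 3aA. Arrays 3aA and 3bA, the pair of number 3, had an actin 3′ to 5′ signal ratio of 9.01 and 11.5, against 1.01 to 1.58 on the other 6 arrays of the group, and a median correlation with their group of 0.794. Without number 3 the difference was 2.79 and passed (adjusted p = 0.0170, limma). The part of RNA quality in these values was not tested.

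Pvr read 186, 2125 and 3021 as lowest, median and highest at 6 h in total RNA, against 100, 149, 185 and 36.5 in the control titled 1hr polysome. The lowest exercised array, 1bA, lay at 185.9 and the highest control array at 185.1, so the groups were parted by less than 1 signal unit, and the other 7 exercised arrays read 1143 or more. The difference was 3.38 (SE 0.83, 95% interval 1.61 to 5.15), or 10.4-fold, with an unadjusted p of 0.00103 and an adjusted p of 0.0907 (limma).

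Pdpn gave 250, 391 and 721 at 6 h in total RNA, against 72.4, 167, 46.5 and 37.3 in the control titled 1hr polysome. The arrays did not overlap, but 3 of the 4 control arrays were under the floor, so the fitted 2.93-fold (log2 1.55, SE 0.44, adjusted p = 0.127, limma) understates the contrast. Cd44 gave 181, 491 and 1164, against 218, 210, 251 and 303 in that control. Array 1bA, at 181, lay below all 4 control arrays, and the difference of 1.12 (SE 0.40, adjusted p = 0.219, limma) was the smallest of the 4. Arrays that did not overlap were thus found for 3 of the 4 receptors, against 1.43% of all probe sets.

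Array 1bA of number 1 in the 6 h total group touched each of these values. On its partner array, 1A, the 4 receptors were 1.98-fold (Plaur), 3.52-fold (Cd44), 2.15-fold (Pdpn) and 11.99-fold (Pvr) higher than on 1bA. All 22 probe sets called higher at 6 h in polysomal RNA, those of the receptors included, were also lower on 1bA than on 1A, by a median of 1.97 on the log2 scale, whereas 46.2% of all tested probe sets were lower and their median did not shift. In the other 17 pairs of arrays the 22 probe sets had a median shift between -0.17 and 0.25. The actin ratio of 1bA was 1.57, beside 1.58 on 1A, and its correlation with the rest of the group was 0.886. Without 1bA the difference at 6 h was 2.48 for Plaur (adjusted p = 0.0332, limma) and 3.83 for Pvr (adjusted p = 0.0260, limma), which then passed, while Cd44 at 1.35 (adjusted p = 0.0882, limma) and Pdpn at 1.70 (adjusted p = 0.0830, limma) did not. What set 1bA apart was not tested.

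**Figure D2:**
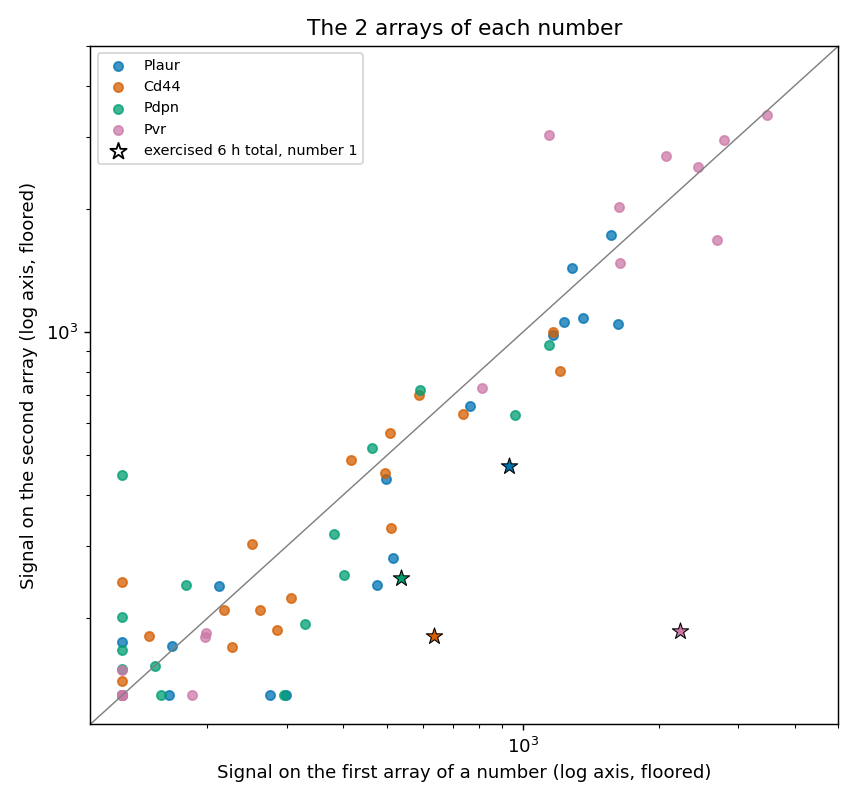
The second array of each number plotted against the first for the 4 receptors (log axes, values under the floor raised to it, line of equality drawn). The stars are number 1 of the exercised 6 h total group, whose 4 receptors all lie below the line, Pvr by 11.99-fold.

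At 1 h Plaur in polysomal RNA stood above the control titled 1hr polysome on every array, while Pvr differed widely between the exercised numbers. In polysomal RNA Plaur read 517, 281, 764 and 659 on the 4 exercised arrays, against 167, 171, 104 and 175 in the control titled 1hr polysome. All exercised arrays were higher, as they were for 2.42% of all probe sets. The difference was 1.71 (SE 0.61, or 3.26-fold) with an unadjusted p of 0.0139 and an adjusted p of 0.990 (limma). No probe set of the array passed in this comparison (0%), and 2.48% were higher at an unadjusted p under 0.05, among them Plaur and Pvr. Against the polysomal control Plaur overlapped, since exercised array 1bA, at 281, lay below array 4aA of that control, at 299.

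Pvr at 1 h in polysomal RNA read 198 and 180 on the arrays of number 1, and 3472 and 3399 on those of number 2, against 100, 149, 185 and 36.5 in the control titled 1hr polysome. Number 1 lay at the level of the control and number 2 above every other Pvr array of the series. The difference of 2.46 (SE 0.96, unadjusted p = 0.0217, adjusted p = 1.000, limma) therefore averages unlike samples. Without number 1 it was 4.55 (adjusted p = 0.00955, limma), and without number 2 it was 0.36. Each of these fits leaves 1 exercised number, which is assumed to vary like the other groups.

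Cd44 read 285, 187, 511 and 332 at 1 h in polysomal RNA, against 218, 210, 251 and 303, with a difference of 0.35 (SE 0.46). Pdpn read 68.5, 202, 113 and 447, against 72.4, 167, 46.5 and 37.3, with a difference of 0.52 (SE 0.51). Both overlapped their control, 2 of the 4 exercised Pdpn arrays were under the floor, and neither difference had an unadjusted p under 0.05 (limma).

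In total RNA at 1 h Pvr again split by number, with 199 and 184 for number 1 and 811 and 729 for number 2, against 100, 149, 185 and 36.5 in the control titled 1hr polysome. Plaur did the same, with 164 and 129 for number 1 and 498 and 437 for number 2, against 167, 171, 104 and 175. Number 1 of both genes overlapped the control while number 2 did not. The differences were 1.39 for Pvr (SE 0.96, 95% interval -0.66 to 3.43) and 0.71 for Plaur (SE 0.61, 95% interval -0.59 to 2.02). Cd44 read 124, 244, 307 and 225, against 218, 210, 251 and 303, a difference of -0.17 (SE 0.46). Pdpn read 97.0, 55.3, 295 and 116, against 72.4, 167, 46.5 and 37.3, a difference of 0.21 (SE 0.51). None of the 4 passed in limma or had an unadjusted p under 0.05, the smallest adjusted p being 0.643, where 0.0745% of all probe sets passed and 6.35% were higher at an unadjusted p under 0.05. None of the receptors had all arrays above the control, against 6.23% of all probe sets.

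Number 2 exceeded number 1 for all 4 receptors in both fractions at 1 h. In polysomal RNA the ratio was 18.2 for Pvr, 1.86 for Plaur, 1.78 for Cd44 and 1.49 for Pdpn. In total RNA it was 4.02, 3.20, 1.47 and 1.51 in the same order. The median probe set did not differ between the numbers in either fraction, and 45.3% and 43.4% of all tested probe sets were higher in number 2. The labels do not say whether number 2 of both fractions is the same muscle.

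All 4 receptors were higher at 6 h than at 1 h in total RNA. The choice of genes did not use these arrays, though the muscles may be shared. The differences were 1.65 for Plaur (SE 0.53, 3.13-fold), 1.29 for Cd44 (SE 0.40, 2.44-fold), 1.35 for Pdpn (SE 0.44, 2.54-fold) and 1.99 for Pvr (SE 0.83, 3.97-fold). Each had an unadjusted p under 0.05, from 0.00546 to 0.0301, beside 3.89% of all probe sets that were higher at that level. None passed after adjustment (limma adjusted p 0.500 to 0.599), and 0.0596% of all probe sets did, all of them lower at 6 h. Arrays of both times overlapped for each receptor, against 0.924% of all probe sets with every 6 h array above every 1 h array, since Plaur at 6 h reached down to 241 and at 1 h up to 498, and Pvr at 6 h reached down to 186 and at 1 h up to 811. Without array 1bA the differences were 1.77, 1.52, 1.49 and 2.44 in the order above, and none passed (limma adjusted p 0.243 to 0.323).

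The 6 h polysomal arrays carry the choice of genes, so their other comparisons are descriptions. Against 1 h polysomal RNA the receptors were higher by 1.22 (Plaur, SE 0.53), 1.17 (Cd44, SE 0.40), 1.51 (Pdpn, SE 0.44) and 1.43 (Pvr, SE 0.83). Only Plaur had all 8 arrays at 6 h above all 4 at 1 h, as 0.790% of all probe sets did. Pvr at 6 h, at 1476 to 2942, lay under number 2 at 1 h, at 3399 and 3472, and without number 1 at 1 h the Pvr difference was -0.66. Against the control titled 1hr polysome all 4 receptors had arrays that did not overlap, beside 2.42% of all probe sets, with differences of 2.93, 1.51, 2.02 and 3.89 for Plaur, Cd44, Pdpn and Pvr. This comparison shares its control arrays with those of total RNA above, so the values stand side by side and their likeness is no result. In the control titled 1hr polysome minus the polysomal control the differences were -0.19 for Plaur (SE 0.53), 0.44 for Cd44 (SE 0.40), -0.20 for Pdpn (SE 0.44) and 0.18 for Pvr (SE 0.83). The floor limits these values. Pdpn was under it on 3 of 4 and on 2 of 8 arrays of these controls and differed by -1.02 with the floor at the 20th percentile, and Pvr was under it on every array of the polysomal control, so that its difference is only bounded.

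Polysomal RNA was set against total RNA to ask whether a transcript's share on ribosomes differs from its share of all RNA. At 1 h none of the 4 receptors passed. The differences were 0.99 for Plaur (SE 0.61, 95% interval -0.31 to 2.30), 0.51 for Cd44 (SE 0.46, 95% interval -0.47 to 1.49), 0.31 for Pdpn (SE 0.51, 95% interval -0.77 to 1.39) and 1.07 for Pvr (SE 0.96, 95% interval -0.97 to 3.11). The smallest adjusted p was 0.479 and no receptor had an unadjusted p under 0.05 (limma), whereas 0.388% of all probe sets passed and 6.32% were higher in polysomal RNA at that unadjusted level. Plaur was higher in polysomal RNA in both numbers, whereas Pvr was 189 and 191 as the means of number 1 in polysomal and total RNA and 3435 and 769 as those of number 2. Without number 2 of the polysomal group the Pvr difference was -1.02. The actin 3′ to 5′ ratio moved with the fraction at 1 h, at 2.003 to 4.28 in polysomal RNA and 1.22 to 1.62 in total RNA, and its part in these values was not tested. At 6 h the differences, given as descriptions, were 0.57 for Plaur (SE 0.43), 0.39 for Cd44 (SE 0.32), 0.47 for Pdpn (SE 0.36) and 0.51 for Pvr (SE 0.68), each under 1.5 times its SE. Without array 1bA they were 0.45, 0.17, 0.33 and 0.065.

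**Figure D3:**
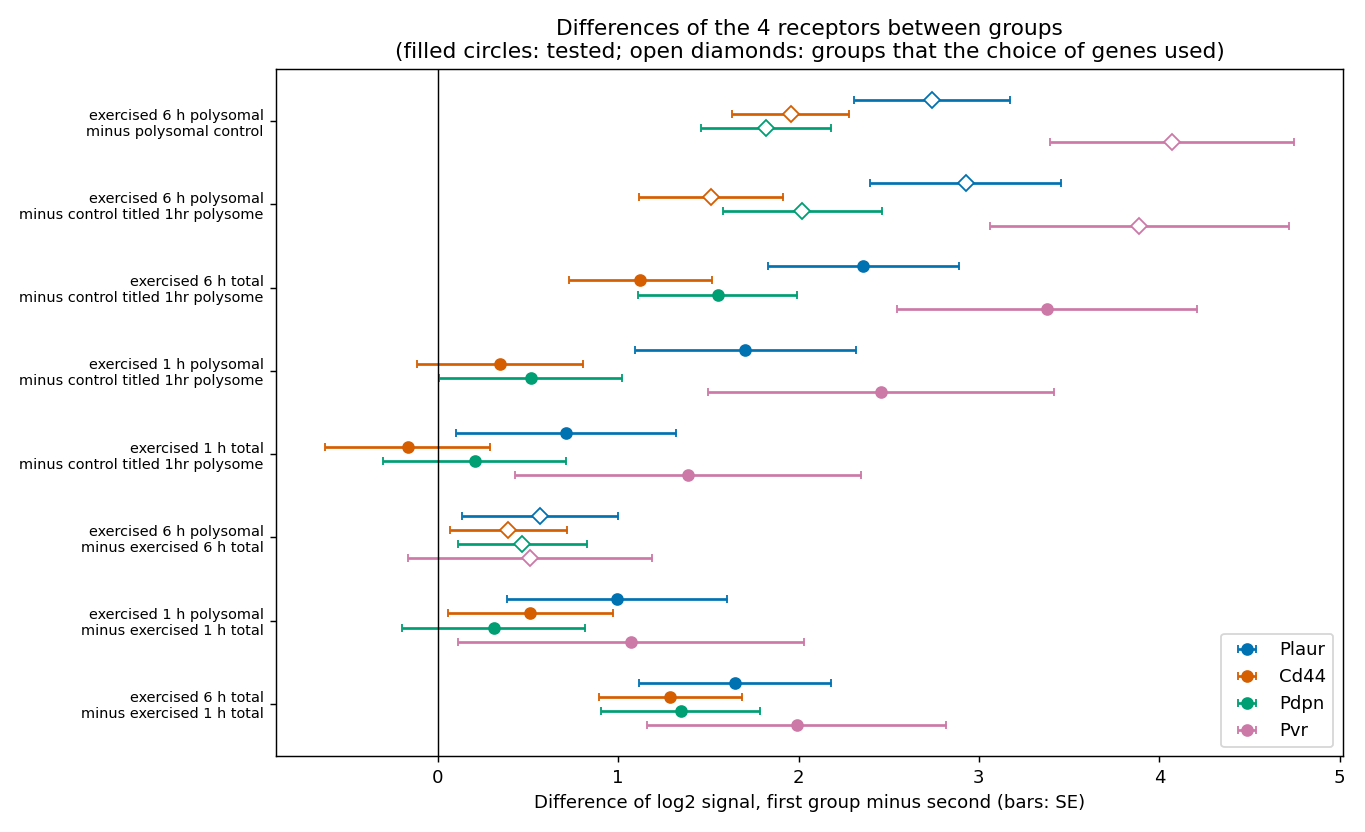
Differences of log2 signal, first group minus second, for the 4 receptors in 8 comparisons, with SE bars. Filled circles are tested comparisons and open diamonds those that used the 6 h polysomal arrays. The 6 h comparisons with a control lie to the right of 1, the fraction comparisons between 0.31 and 1.07, and the Pvr value against the polysomal control is a lower bound.

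Ordered by mean, all 4 receptors stood highest at 6 h in polysomal RNA and next highest at 6 h in total RNA, followed by 1 h in polysomal RNA. The geometric mean signals of Plaur in this order were 1212, 818 and 520, followed by 261 at 1 h in total RNA, 182 in the polysomal control and 159 in the control titled 1hr polysome. Cd44 averaged 693, 528 and 308 in the same 3 groups, followed by 243 in the control titled 1hr polysome, 216 at 1 h in total RNA and 178 in the polysomal control. Pdpn averaged 560, 405 and 197 in the 3 upper groups and between 138 and 159 in the 3 lower ones, close to the floor. Pvr averaged 2174, 1524, 805, 384 and 147, with the polysomal control at the floor. Judged by whether the means ± SD of neighbouring groups overlap, neighbours above the floor were parted only once, for Pdpn between 6 h total RNA and 1 h polysomal RNA. The choice of genes used 6 h polysomal RNA and so favours the first place of that group.

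The 4 receptors varied together over the 18 numbers, which share group structure and scaling, with Pearson correlations of log2 signal from 0.77 (Cd44 with Pdpn) to 0.90 (Plaur with Pvr). Among 3899 other genes, the closest to Plaur were Clu (0.90), an extracellular chaperone, Klhl41 (0.89), a sarcomere-associated kelch protein, and Hbegf (0.89), a ligand of the EGF receptor. Closest to Cd44 were Hbegf (0.90), the growth factor Fgf1 (0.87) and Clu (0.86). Closest to Pdpn were Fosl1 (0.90), a subunit of AP-1, Plin2 (0.89), a lipid droplet coat protein, and Pelo (0.86), a ribosome rescue factor. Closest to Pvr were Ankrd1 (0.96), a stretch-responsive muscle protein, Uck2 (0.95), a pyrimidine salvage kinase, and Hbegf (0.93). The median correlation over the 3899 genes was -0.08 for Plaur, -0.03 for Cd44, -0.06 for Pdpn and -0.003 for Pvr. These correlations are descriptions over 18 numbers that are high or low with the same groups. The choice of genes used the 6 h polysomal numbers and those of the polysomal control, so correlation among the receptors is partly built in.

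Few genes for ligands, enzymes or partners of the receptors passed the test in any comparison. Of the urokinase and plasminogen system 12 of 18 listed genes were tested, and none passed in exercised 6 h polysomal RNA minus the polysomal control, where the median of the list was 0.09, beside -0.03 over all probe sets. Same-numbered replicates of these groups varied together, and with the replicate block, too, no gene of this or any other list passed in this comparison. With the arrays and a random block 1 gene did in each of 5 lists, namely Timp1, Vcan, Cd63, Lgals3 and Myod1, all of them higher. Its largest difference there was that of Anxa2, a surface receptor that assembles plasminogen activation, with mean signals of 3644 and 1536 (log2 1.25, SE 0.48, adjusted p = 0.607, limma). Plau, the urokinase that Plaur binds, was singled out after its values were seen. It averaged 663 at 6 h in polysomal RNA, against 595 in the polysomal control (log2 0.16, SE 0.23), and 882 at 6 h in total RNA, against 487 in the control titled 1hr polysome (log2 0.86, SE 0.29, adjusted p = 0.192, limma). Plau passed there with the random block (adjusted p = 0.0492, limma) and without array 2bA of that control (adjusted p = 0.0423, limma). At 6 h in total RNA the list had 8 of its 12 differences above 0 and a median of 0.47, beside 0.10 over all probe sets, and none passed. The 1 gene of the list that passed against a control was F3, the tissue factor that starts coagulation, which averaged 256 at 1 h in total RNA, against a control titled 1hr polysome that lay at the floor (log2 difference of at least 0.98, SE 0.17, adjusted p = 0.0476, limma). F3 passed in 4 of 11 alternatives, and neither with the floor at the 20th percentile (adjusted p = 0.177, limma) nor without any 1 replicate of these groups (adjusted p 0.135 to 0.409, limma).

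Of the genes for hyaluronan metabolism and for CD44 ligands and linkers 10 of 18 were tested and none passed in any comparison here. In exercised 6 h polysomal RNA minus the polysomal control 5 of 10 were above 0, with a median of 0.06, beside -0.03 over all probe sets. The largest difference was that of Vcan, a hyaluronan-binding proteoglycan, at mean signals of 482 and 181 (log2 1.41, SE 0.46, adjusted p = 0.405, limma). At 6 h in total RNA minus the control titled 1hr polysome the median was 0.23, beside 0.10 over all. Of the podoplanin partners 4 of 6 were tested, and none passed at 6 h against either control. The tetraspanin Cd63 had the largest difference, with 11551 at 6 h in polysomal RNA, against 5997 in the polysomal control (log2 0.95, SE 0.35, adjusted p = 0.555, limma). Of the nectin family and PVR partners 3 of 13 were tested, with none passing, and Nectin1, a nectin of cell junctions, had the largest difference, 0.31 (SE 0.26, adjusted p = 1.000, limma).

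Other adhesion receptors were listed without the 4. The 4 were chosen on exercised 6 h polysomal RNA minus the polysomal control, and the list was made with earlier results known. A lack of calls in that comparison may therefore follow from the choice. Of 39 listed integrins, selectins, syndecans and relatives 27 were tested, and none passed at 6 h in polysomal RNA minus the polysomal control, with 15 above 0 and a median of 0.04, beside -0.03 over all probe sets. Icam1, which leukocytes bind, had the largest difference among them, at 409 and 180 (log2 1.18, SE 0.39, adjusted p = 0.417, limma). At 6 h in total RNA minus the control titled 1hr polysome 20 of 27 were above 0, with a median of 0.18, beside 0.10, and none passed. Of 23 focal adhesion and actin genes 15 were tested, none passed in either comparison, and the largest difference at 6 h in polysomal RNA was that of Actb, cytoplasmic actin, at 0.54 (SE 0.38). The comparison of fractions at 6 h did hold calls, among 8.77% of all probe sets. The actin ratio moved with the fraction here as well, at 2.54 to 4.48 in polysomal RNA, and in total RNA at 1.01 to 1.58 on 6 arrays and 9.01 and 11.5 on those of number 3, and its part in the calls was not tested. S100a10 (1.10, adjusted p = 0.0344), the partner of annexin A2, Cd63 (1.22, adjusted p = 0.0436), the collagen-binding integrin subunit Itga1 (1.43, adjusted p = 0.0377) and the small GTPase Cdc42 (0.86, adjusted p = 0.0105) were higher in polysomal than in total RNA in limma. The adhesion molecule Alcam (-0.65, adjusted p = 0.0483) and the focal adhesion proteins Pxn (-0.85, adjusted p = 0.0331) and Tns1 (-0.86, adjusted p = 0.0215) were lower there in limma. Of these 7 genes Cdc42 passed in all 16 alternatives, the others in 4 to 12, and Cdc42, Itga1 and Tns1 passed without number 3 of total RNA.

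**Figure D4:**
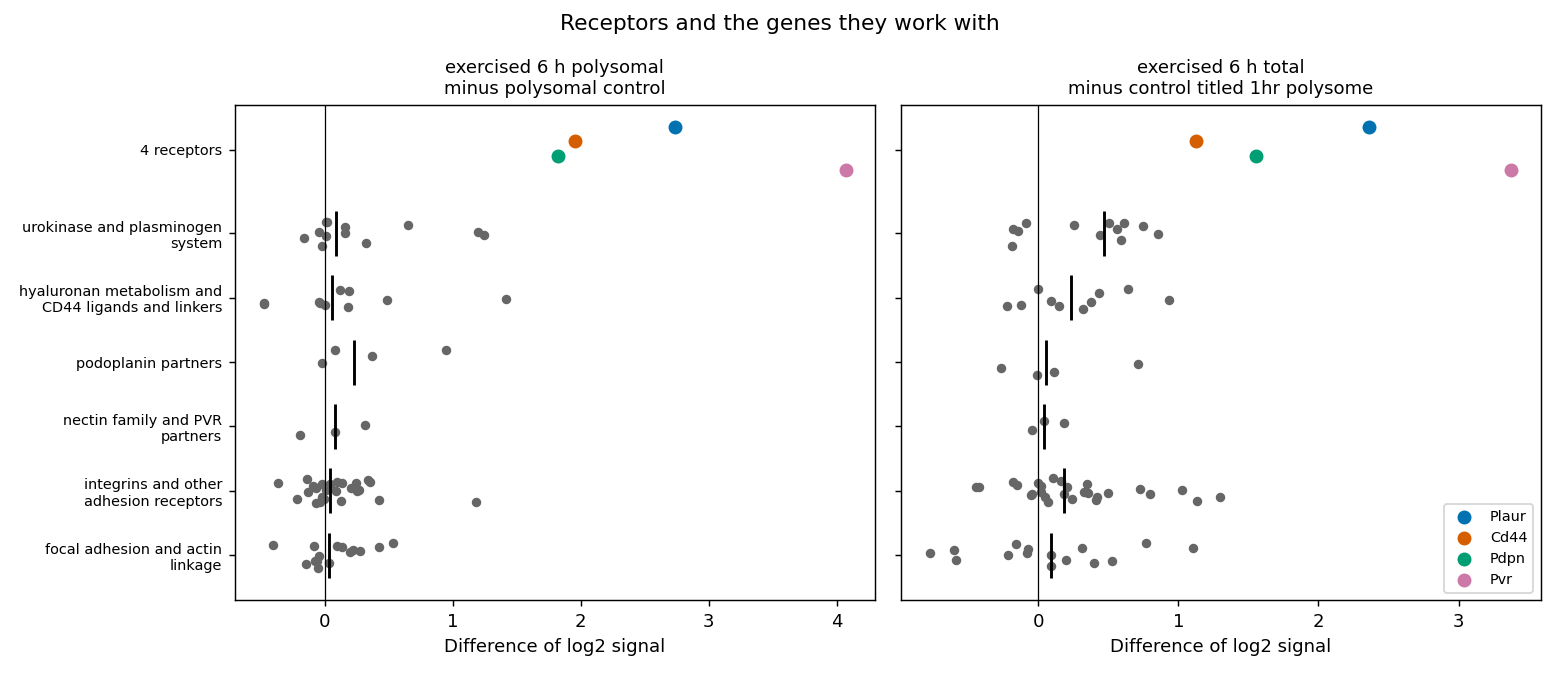
Differences of log2 signal at 6 h for the 4 receptors (coloured) and the tested genes of 6 related lists (grey points, vertical line at the median of each list), in polysomal RNA (left) and in total RNA (right) against the control named above each panel. The receptors lie to the right of most list genes in both panels, where the left panel shows the comparison the receptors were chosen on and the largest list value there is 1.41.

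Marker genes of cell types that muscle can hold were set beside the receptors. The sums below add linear signals, so the brightest markers weigh most. At 6 h in total RNA the fibroblast markers Col1a1 and Pdgfrb, for instance, had median signals of 20811 and 136. Of 22 macrophage and monocyte markers 12 were tested, and their summed signal ran from 8520 to 21292 at 6 h in polysomal RNA, against 6963 to 11523 in the polysomal control, and from 6872 to 11105 at 6 h in total RNA, against 5835 to 6674 in the control titled 1hr polysome, where the sums did not overlap and 11 of 12 markers were above 0. The sums of that control also lay below all of those of the polysomal control. None passed against a control at 6 h, with medians of 0.07 and 0.41, beside -0.03 and 0.10 over all probe sets, and the largest was Lyz2, a lysozyme, at 1.40 in polysomal RNA (SE 0.55, adjusted p = 0.641, limma). Itgam, an integrin subunit found on myeloid cells, was under the floor on all 8 total RNA arrays at 6 h and on all 4 of that control. Its difference between these groups was therefore 0. Coro1a was under the floor on all 4 arrays of that control. Between fractions at 6 h Coro1a was higher (1.45, adjusted p = 0.0142) and the complement gene C1qc lower (-0.60, adjusted p = 0.0419) in polysomal RNA in limma, of which Coro1a passed in all 16 alternatives and C1qc in 5. The sum of 4 tested neutrophil markers, of 10 listed, was 1161 to 2213 at 6 h in polysomal RNA, against 723 to 1740 in the polysomal control. Its largest difference was that of the decoy receptor Il1r2, at 0.62 (adjusted p = 0.695, limma).

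For the 11 tested fibroblast and mesenchymal markers, of 14 listed, the sum was 44590 to 67078 at 6 h in total RNA, against 23112 to 42810 in the control titled 1hr polysome, without overlap. Of these 10 were above 0, with a median of 0.84, beside 0.10 over all probe sets, and none passed. This control itself stood apart from the polysomal control. In the control titled 1hr polysome minus the polysomal control 0 of 11 fibroblast markers were above 0, with a median of -0.77, and 13 of 13 muscle fibre genes were, with a median of 0.78, beside 0.03 over all probe sets. None of these genes passed in limma, and 1 of the fibroblast markers and 0 of the fibre genes had an unadjusted p under 0.05. What set this control apart, and its part in the receptor differences against it, was not tested. In polysomal RNA their sums overlapped, at 32267 to 72544 at 6 h and 35683 to 85045 in the polysomal control, and the median was -0.04, with S100a4 the largest at 1.02 (adjusted p = 0.778, limma). Of 5 tested endothelial and lymphatic markers, of 14 listed, none passed, the sums overlapped in both fractions, and the lymphatic marker Lyve1 differed by -0.37 at 6 h in polysomal RNA (adjusted p = 1.000, limma). Of 8 satellite cell and myoblast markers the myogenic factor Myog had the largest difference, with 1828 at 6 h in polysomal RNA, against 540 in the polysomal control (log2 1.76, SE 0.77, adjusted p = 0.787, limma). Met, the receptor of hepatocyte growth factor, was the 1 gene of this list that passed between fractions at 6 h, with 138 in polysomal RNA, against 240 in total RNA (log2 -0.80, SE 0.23, adjusted p = 0.0414, limma), and it passed in 5 of 16 alternatives. Of the 13 muscle fibre genes Ckm, muscle creatine kinase, differed most, by -1.39 (SE 1.59, adjusted p = 1.000, limma). The part of these cell types in the receptor signals was not tested.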

How the data were processed

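The values were intensity signals on a linear scale that the authors deposited in 1 table, with 1 value per probe set and array. The software and summary method are not given in the sources used here, and a centring step or the scaling target stay unknown. After 59 control probe sets were removed, values under the 40th percentile of all signals (129.5) were raised to it and log2 was taken. Tests covered the 6707 probe sets that exceeded this floor on 4 or more arrays.

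Each number's 2 arrays were averaged, giving 18 replicates in 6 groups, whose number limits the precision. They were fitted in 1 model with limma 3.58.1 in R 4.3.3 (lmFit, contrasts.fit and eBayes, 12 residual degrees of freedom, two-sided, Benjamini-Hochberg adjustment over 6707 probe sets, threshold 0.05). The procedure was checked on simulated data, drawn as independent normal values without a floor, array pairs or correlated numbers. That check therefore does not cover these features of the data. Comparisons that include the 6 h polysomal arrays or the polysomal control were given no test for the 4 receptors, because the choice of genes used them. The receptors and gene lists were chosen with earlier results of these data known.

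Symbols came from the platform annotation, updated through Entrez identifiers for 6985 probe sets. A single symbol was found for 7006 of 8740 probe sets, 308 had several and 1426 lacked any, and the last 2 kinds were not named. A gene was read from its brightest probe set. The text names every probe set of the receptors, list members that passed in any comparison (at most 3 per list and comparison), the member of each list with the largest difference at 6 h in polysomal RNA, and the 3 genes closest to each receptor. Promoter windows came from RefSeq, build GRCr8.

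Numbers were taken to pair samples where each of at least 3 pairs deviated together at a correlation over 0.1, which held between exercised 6 h polysomal RNA and the polysomal control (0.43 to 0.54 over 4 pairs) and, with 0.07 to 0.25, not between the fractions at 6 h. The labels give no reason for it. Alternatives were a replicate block, quantile normalization, 75th percentile scaling, another floor, no filter and the arrays with a random block. Arrays or replicates were also left out. Array medians were 148.5 to 266.3.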

Additional observations from a re-analysis of the deposited data

Results flagged for a closer look

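A sample stood apart from the rest of its group in 7 of 45 checks of group and probe set for the receptors. Chance gives about 1 in 20 where values vary freely, but 5 of the 7 were the single value above the floor among values raised to it, which stand apart by construction, so that rate does not apply. Array 1bA of exercised 6 h total RNA was far below the other 7 for Pvr, at 185.9. For Pdpn, array 2aA at 1 h in total RNA (295) and array 1bA of the control titled 1hr polysome (167) were each the 1 array of 4 above the floor. Plaur on array 2aA of that control was the 1 array of 4 at the floor (129.5). The weak Cd44 probe set A30543cds_s_at was above the floor on array 1aA at 1 h in polysomal RNA (204) and on array 1A at 6 h in polysomal RNA (173), which also put number 1 apart there, at a mean of 149.8.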

How the results depend on the processing

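Of 244 alternatives for the 20 tested receptor differences 226 kept direction and side of the threshold, 12 moved past the threshold and 6 reversed, none of the 20 having a call to lose, and of 280 for the 20 described ones 276 moved by less than the spread between replicates. Exercised 6 h total RNA minus the control titled 1hr polysome passed for Plaur at 2.40 and Pvr at 3.20 with a replicate block, although these numbers do not pair samples (correlation -0.22 and 0.18). With the 36 arrays and the number as a random block (correlation 0.31, 1 value for all probe sets), Plaur at 2.36, Pdpn at 1.55 and Pvr at 3.38 passed. Without array 2bA of the control Plaur passed at 2.47 and Pvr at 3.25, and without array 1bA of the exercised group, chosen after seeing the data, at 2.48 and 3.83. Of the 6 fits without 1 replicate, Plaur passed only in that without exercised number 3. Pvr passed only in that without exercised number 1, and Cd44 and Pdpn passed in none. Leaving out 1 replicate gave 2.03 to 2.79 for Plaur, 0.78 to 1.34 for Cd44, 1.31 to 1.69 for Pdpn and 3.15 to 3.80 for Pvr.

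The ranges without 1 replicate in exercised 1 h polysomal RNA minus this control were 1.26 to 2.15 (Plaur), -0.071 to 0.76 (Cd44), 0.23 to 0.80 (Pdpn) and 0.36 to 4.55 (Pvr). In 1 h total RNA they were -0.13 to 1.55, -0.45 to 0.11, -0.093 to 0.51 and 0.39 to 2.40 in the same order, and Cd44 was 0.017 without number 2 of the control. In 6 h minus 1 h total RNA they were 0.81 to 2.49, 0.95 to 1.57, 1.05 to 1.65 and 0.99 to 2.99, and in 1 h polysomal minus total RNA 0.16 to 1.84, 0.10 to 0.93, 0.013 to 0.61 and -1.02 to 3.16. Pvr at 6 h minus 1 h in polysomal RNA was -0.66 to 3.53. With the floor at the 20th percentile Pdpn was 2.98 in 6 h polysomal RNA minus the control titled 1hr polysome and -1.02 between the controls.

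Counts of called probe sets varied widely. Exercised 1 h polysomal RNA against the control had 0, 4 with the random block and 0 to 45 without 1 replicate. For 1 h total RNA 5 became 28 with the replicate block, 0 with the lower floor, 10 with no filter, 113 with the random block, 202 without array 2bA and 0 to 19 without 1 replicate. For 6 h total RNA 27 became 140, 195 and 306 with both blocks and without array 2bA, 81 without array 1bA and 0 to 100 without 1 replicate. For 6 h minus 1 h total RNA 4 became 0 with the replicate block and the lower floor, 11 with no filter, 20 with the random block, 7 without array 1bA and 1 to 15 without 1 replicate. For 1 h polysomal minus total RNA 26 became 206, 9, 364 and 40 with the replicate block, the lower floor, the random block and without array 2bA, and 0 to 86 without 1 replicate. The cause of these shifts was not tested. Fits that leave 1 number in a group assume that it varies like the other groups. The alternatives for list genes were added after seeing the data. In 6 h total RNA minus the control titled 1hr polysome the replicate block called Lum and Myog higher and Cdc42 and Acta1 lower, and the random block called Plau, Thy1, Col1a1 and Myod1 higher and Cdc42 and Myl1 lower.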
